A study of Bos taurus with 8 samples.

Results

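The 10 genes described here make glutathione, use it or the parallel thioredoxin system, or belong to the NRF2 response that adjusts both. They are GCLC, GCLM and GSS for synthesis, GSR, GPX1 and TXNRD1 for use, NQO1 and HMOX1 as further enzymes of the response, and NFE2L2 and KEAP1 as its regulators. The set was drawn up by gene name, by a rule that used no values, although earlier results of these data were known: a probe belonged to the set when the array file gave one of these names for it, and each of the 10 genes had 1 probe among the 15008 distinct probes. Each of the 10 probes passed the scanner software's test for a signal well above background on 8 of 8 arrays.

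Liver RNA came from 4 fistulated Holstein bull cattle (numbers 19, 20, 23 and 24) of a trial with 11 bulls aged 5 to 6 months. Each of the 4 animals has 1 array from the period with 4 g and 1 from the period with 0 g per head per day of an egg-yolk immunoglobulin that holds antibody against lipopolysaccharide (LPS), given through the rumen fistula for 14 days, so the groups are 4 arrays at 4 g and 4 arrays at 0 g. In both groups the cattle ate hay for 11 days, then a high-grain diet for 2 days to bring on subacute ruminal acidosis (SARA), then hay for 1 day, and liver was taken on day 2 after the challenge. The 0 g animals were thus challenged as well, and no unchallenged liver was analysed here. The sample labels do not give the order of the periods, so effects of period or carry-over were not tested.

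Glutathione is a small sulfur-containing peptide that liver makes in large amounts to neutralise peroxides and to tag foreign compounds. Its first and rate-limiting step is carried out by glutamate-cysteine ligase, built from a catalytic subunit (GCLC) and a modifier subunit (GCLM), and glutathione synthetase (GSS) completes the molecule. In unstressed cells KEAP1 hands the transcription factor NRF2, the product of NFE2L2, to degradation. Oxidants and electrophiles modify KEAP1, NRF2 then accumulates, and it switches on genes such as GCLC, GCLM, TXNRD1, NQO1 and HMOX1. Much of this control acts on the NRF2 protein, which these arrays do not measure.

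The arrays were of 1 colour and carried 60-base probes. The sequences of the probes for 5 genes are shown because their results turn on single probes: GCLC and TXNRD1 separated the doses, KEAP1 followed 2 arrays, NFE2L2 varied least, and the strand of the GPX1 probe bears on what it measures. They are given as in the array files, 5′ to 3′, in the genome build UMD 3.1.
GCLC, chr23:6965051-6965110, plus strand: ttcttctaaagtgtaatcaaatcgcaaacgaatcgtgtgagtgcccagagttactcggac
TXNRD1, chr5:68291397-68295411, plus strand: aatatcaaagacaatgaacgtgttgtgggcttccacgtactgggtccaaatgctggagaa
KEAP1, chr7:16239264-16239323, minus strand: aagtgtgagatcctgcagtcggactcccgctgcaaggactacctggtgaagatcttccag
NFE2L2, chr2:19690338-19690397, plus strand: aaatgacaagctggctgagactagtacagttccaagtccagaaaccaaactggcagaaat
GPX1, chr22:51325904-51325963, minus strand: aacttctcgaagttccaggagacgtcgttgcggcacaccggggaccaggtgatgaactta
The 60 bases of the TXNRD1 probe span 4015 bases of the genome, so they lie in more than 1 exon. The other probes lie on chromosome 3 from 49759038 to 49759097 (GCLM), chromosome 13 from 64842322 to 64842381 (GSS), chromosome 27 from 25943427 to 25943486 (GSR), chromosome 18 from 36911380 to 36911439 (NQO1) and chromosome 5 from 73987761 to 73987820 (HMOX1). The KEAP1 and GPX1 probes hold 55% G and C, against 35% to 45% for the others.

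The GPX1 probe calls for caution. The files print probes as the messenger strand: the polyadenylation signal AATAAA occurs in 9.51% of the 15008 probes and its reverse complement TTTATT in 3.4%. The GPX1 probe was drawn from a partial clone that the files describe only as similar to glutathione peroxidase. From general knowledge of the mammalian GPX1 coding sequence, which is not part of the files, the printed letters are the reverse complement of the coding strand. Its values are therefore given as those of the probe, and whether they follow GPX1 messenger RNA was not tested.

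Several arrays stood apart before any gene was compared. The 75th percentile of the signal was 125.8 in animal 19 at 4 g and 126.3 in animal 20 at 0 g, against 218.0 to 311.7 on the other 6 arrays. Both dim arrays lay more than 1 log2 unit below the other 6 for 417 of 10964 probes (3.8%). The 0 g array of animal 23 carried transcripts of pancreatic acinar cells: 16 of 16 such markers were well above background there. The log2 of their summed signal was 11.33 there, against 3.43 to 4.66 on the other 7 arrays. On the 4 g array of animal 23, 12 of the 16 markers were above background. In animal 24 this held for 9 at 4 g and 11 at 0 g, and in animals 19 and 20 for 3 to 5. All 15 hepatocyte markers had such a signal on each array, which fits the label liver, although the extraction text names rumen epithelium. On the 0 g array of animal 19 some squamous epithelium markers were raised. There 10 of 17 rumen and squamous markers were above background, against 6 to 7 on the others. The log2 of their summed signal was 3.05 there, against 1.94 to 3.15 on the other 7 arrays. The keratin KRT6B was at 0.55 on this array, against −5.16 to −2.56 elsewhere, KRT6A at −2.50, against −8.31 to −6.98, and A2ML1 at −0.65, against −8.25 to −5.30. Not all markers were raised: KRT5 was at −4.205, against −5.454 to −4.057, and KRT15 at −4.085, against −5.826 to −3.646. PERP was at 0.64, against 0.33 to 1.33, and TP63 was above background on 0 arrays. The animal labels were tested on 18 probes with 2 levels more than 2 log2 units apart, leaving out splits between the dim and the other arrays. Both arrays of animal 19 lay at the same level for 17 of the 18, and those of animal 20 for 18. For animals 23 and 24 this held for 7 of 18 each, while the 4 g arrays of these animals matched each other for 17 of 18 and their 0 g arrays for 15. The labels of animals 23 and 24 are therefore in doubt, and values are given for each animal.

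**Figure D1:**
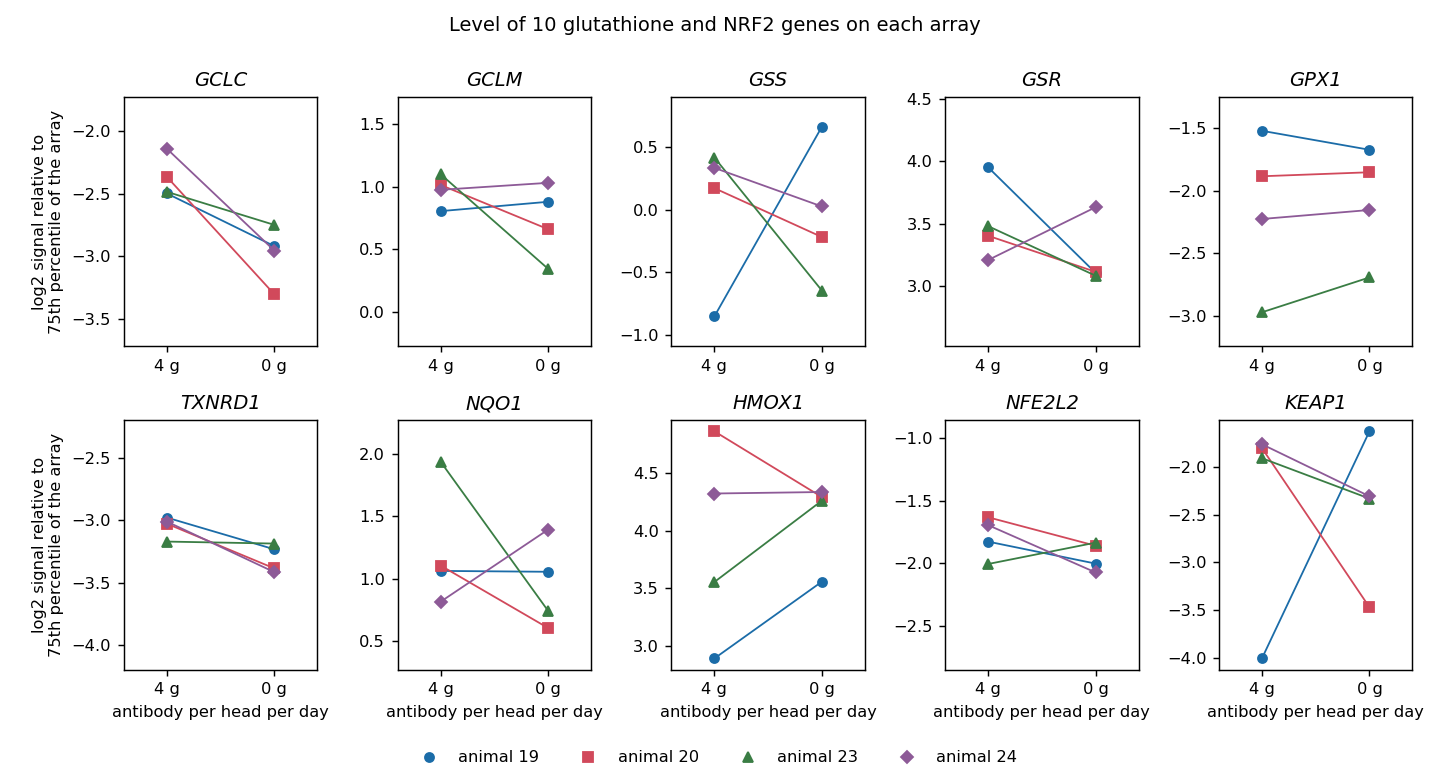
Level of each gene on each array, as log2 signal relative to the array's 75th percentile, at 4 g (left) and 0 g (right) of antibody per head per day. Lines join the 2 arrays labelled as 1 animal, and each panel has its own vertical scale. For GCLC and TXNRD1 all 4 g arrays lie above all 0 g arrays, and KEAP1 is lowest in animal 19 at 4 g and in animal 20 at 0 g.

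Across the 10 genes, 8 stood higher at 4 g than at 0 g and 2 lower, with a median log2 difference of 0.20, while 55.1% of all 10985 tested probes stood higher, with a median of 0.03. None of the 10 passed the test: limma with the animal as a block called 0 of 10985 probes (0%) after adjustment at 0.05. Before adjustment 120 probes (1.09%) lay under 0.05, of which 39 (0.355%) stood higher and 81 (0.737%) lower at 4 g, and 1 member was among those higher. The member median was 0.08 in animal 19, 0.37 in animal 20, 0.33 in animal 23 and 0.15 in animal 24. Over all tested probes these medians were 0.09, −0.05, −0.01 and 0.10. Without animal 23 the member median came to 0.05 and the median of all probes to 0.04. Of 13 markers of stellate cells and fibroblasts, 9 stood lower at 4 g, 4 of them (COL1A2, DES, LUM and TAGLN) in 4 of 4 animals, as 2.08% of all probes did. The muscle-type filament DES differed by −1.12 (SE 0.26) and the contractile protein TAGLN by −1.03 (SE 0.26). PDGFRB (0.47, SE 0.61), LRAT (0.19, SE 0.23), RGS5 (0.19, SE 0.32) and POSTN (0.006, SE 0.29) stood higher. After adjustment in limma 0 of the 13 passed. The log2 of their summed signal was 4.79 to 5.60 at 4 g and 5.54 to 6.62 at 0 g, and the part of these cells in the differences of the 10 genes was not tested. Fewer cells of a type and less RNA per cell cannot be told apart in bulk liver.

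Of the glutamate-cysteine ligase subunits only GCLC separated the doses. GCLC, the catalytic subunit, stood at −2.50, −2.36, −2.48 and −2.14 at 4 g in animals 19, 20, 23 and 24, against −2.92, −3.31, −2.75 and −2.95 at 0 g. Levels here and below are log2 signals relative to the array's 75th percentile. Every 4 g array was above every 0 g array, which held for 39 of 10964 probes (0.356%) and for 2 of the 10 members, while the reverse held for 0.255% of probes and for 0 members. The means were −2.37 ± 0.17 at 4 g and −2.98 ± 0.23 at 0 g (SD, n = 4 each). The difference was 0.61 (SE 0.24, 95% interval 0.04 to 1.18), or 1.53-fold, with an unadjusted p of 0.0398 and an adjusted p of 1.00 in limma. Within the animals it was 0.42, 0.94, 0.27 and 0.82. It averaged 0.68 in animals 19 and 20 and 0.54 in animals 23 and 24, where the doubt about labels means that dose and animal may coincide. Without the 2 dim arrays and with no animal block it was 0.55, and without the 0 g array of animal 23 and no block it was 0.69.

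The GCLC probe was dim, with processed signals between 12.8 and 55.7 units over the arrays. Normexp background correction with an offset of 50, which is as large as these signals, gave a difference of 0.10 (SE 0.38). Under the other 18 settings tried it lay between 0.50 and 0.73. The unadjusted p was under 0.05 in 11 of the 19 settings. It was 0.132 without animal 20, 0.0662 without animal 23, 0.134 without animal 24 and 0.0604 with no filter on dim probes, so the interval then held 0.

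GCLM, the modifier subunit that lowers the feedback of glutathione on the enzyme, did not separate the doses. It stood at 0.80, 1.01, 1.1 and 0.98 at 4 g in animals 19, 20, 23 and 24, against 0.88, 0.66, 0.34 and 1.03 at 0 g. The 0 g arrays of animals 20 and 23 were the lowest, while the doses in animals 19 and 24 differed by −0.07 and −0.06. The difference was 0.25 (SE 0.25, 95% interval −0.36 to 0.85), which still allows a change the size of that of GCLC.

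GSS, which adds glycine in the last step of synthesis, stood at −0.85, 0.17, 0.42 and 0.34 at 4 g in animals 19, 20, 23 and 24, against 0.67, −0.22, −0.65 and 0.03 at 0 g. The groups overlapped fully, with the dim 4 g array of animal 19 at the bottom and the 0 g array of animal 19 at the top. The animals disagreed, with differences of −1.52, 0.39, 1.06 and 0.31. The fitted difference of 0.06 (SE 0.43) has a 95% interval from −0.99 to 1.11 and bounds little.

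**Figure D2:**
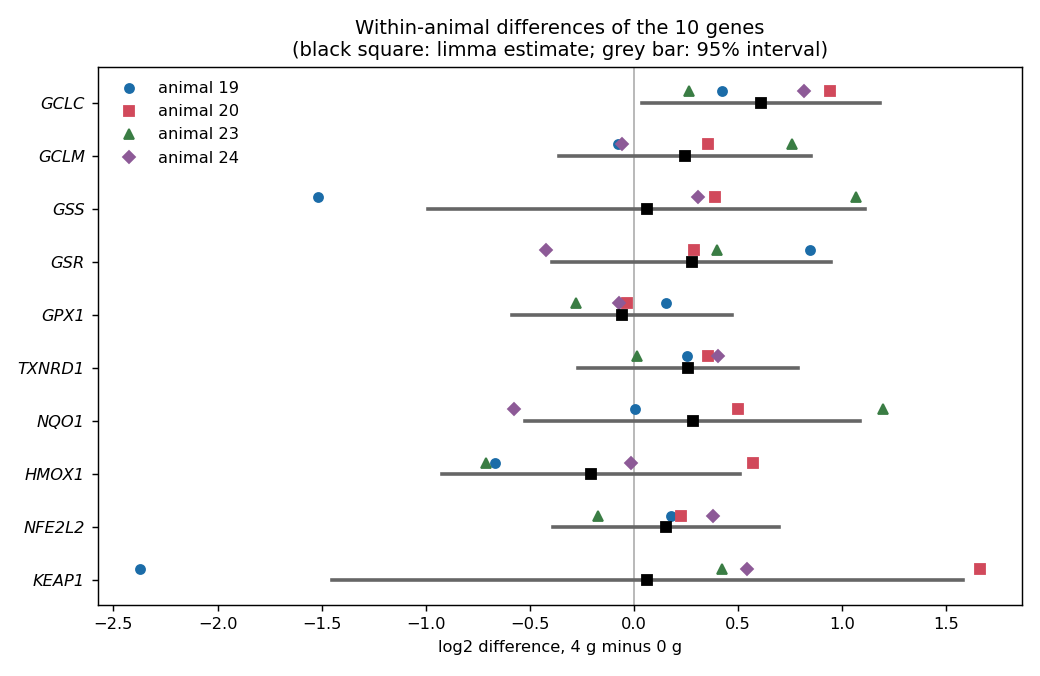
Log2 difference between 4 g and 0 g for each gene, positive where 4 g is higher. The black square is the limma estimate, the grey bar its 95% interval and the coloured symbols the 4 animals. Of the 10 intervals the one for GCLC, from 0.04 to 1.18, lies above 0, before adjustment over all probes and in 11 of 19 other settings, and GSS and KEAP1 have the widest intervals.

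Among the enzymes that use these thiols, TXNRD1, the cytosolic selenoenzyme that recharges thioredoxin, was the second gene whose doses did not overlap. It stood at −2.98, −3.03, −3.17 and −3.01 at 4 g in animals 19, 20, 23 and 24, against −3.23, −3.39, −3.19 and −3.42 at 0 g. The separation was narrow, since the 4 g and 0 g arrays of animal 23 differed by 0.02. The means were −3.05 ± 0.08 at 4 g and −3.31 ± 0.11 at 0 g (SD, n = 4 each), a difference of 0.26 (SE 0.22, 95% interval −0.27 to 0.79, adjusted p of 1.00 in limma). TXNRD1 was among the least variable probes, with an SD over the 8 arrays of 0.17, whereas the median SD of tested probes was 0.41. Its limma standard error is wider than its own spread because the method draws each variance towards that of all probes. Its signals lay between 12.1 and 34.6 units, and with normexp background correction the difference was −0.02 (SE 0.39).

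GSR, which regenerates reduced glutathione, stood at 3.95, 3.41, 3.48 and 3.21 at 4 g in animals 19, 20, 23 and 24, against 3.11, 3.12, 3.08 and 3.63 at 0 g. The 0 g arrays of animals 19, 20 and 23 were nearly equal and below every 4 g array, and the 0 g array of animal 24 lay among the 4 g arrays. The difference was 0.28 (SE 0.28, 95% interval −0.39 to 0.95), with 0.85 in animal 19, 0.29 in animal 20, 0.40 in animal 23 and −0.42 in animal 24. In animals 23 and 24 alone it averaged −0.01.

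The GPX1 probe, named for the cytosolic peroxidase that spends glutathione on hydrogen peroxide, had a small difference between the doses and, of the 10 genes, the smallest p between animals. It stood at −1.52, −1.88, −2.97 and −2.22 at 4 g in animals 19, 20, 23 and 24, against −1.67, −1.85, −2.69 and −2.15 at 0 g. The difference by dose was −0.06 (SE 0.22, 95% interval −0.59 to 0.47). All 4 arrays of animals 23 and 24 lay below all 4 arrays of animals 19 and 20, as for 5.81% of probes (the reverse held for 3.71%), and averaged −2.51 against −1.73. Animals 19 and 20 were on row 1 of the slide and animals 23 and 24 on row 2, so animal and slide row cannot be told apart here. The F-test between animals gave an unadjusted p of 0.0288 and an adjusted p of 0.985 in limma. It called 0 of 10985 probes (0%), and 2.71% had an unadjusted p under 0.05.

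Of the other enzymes of the response, NQO1 reduces quinones in a single step that avoids radicals. It stood at 1.06, 1.11, 1.94 and 0.82 at 4 g in animals 19, 20, 23 and 24, against 1.06, 0.61, 0.74 and 1.39 at 0 g. The 4 g array of animal 23 was the highest, and the 0 g array of animal 24 came next, so the groups overlapped. The difference was 0.28 (SE 0.33, 95% interval −0.52 to 1.08), and without animal 23, which alone differed by 1.19, it was −0.02 (SE 0.36). 

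HMOX1 breaks down haem, and in liver the macrophages that clear red cells hold much of it. It stood at 2.89, 4.86, 3.55 and 4.32 at 4 g in animals 19, 20, 23 and 24, against 3.56, 4.29, 4.26 and 4.34 at 0 g. Animal 19 was low at both doses, and the 0 g arrays of the other 3 animals lay within 0.08 of each other. The difference was −0.20 (SE 0.30, 95% interval −0.92 to 0.51), negative in 3 of 4 animals, and 0.20 (SE 0.37) without the 2 dim arrays and with no block. Between animals HMOX1 had an unadjusted p of 0.0659 and an adjusted p of 0.985 in limma.

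Some Kupffer cell and macrophage markers were low on the arrays where HMOX1 was low. The 3 arrays with the least HMOX1 (the 4 g arrays of animals 19 and 23 and the 0 g array of animal 19) also had the lowest summed signal of 12 such markers, with a log2 of the sum of 6.34, 6.40 and 6.38, against 6.62 to 6.78 on the other 5. The brightest markers carry such a sum. Of the 12 markers, 4 (AIF1, CD5L, CSF1R and MARCO) had the same 3 arrays lowest, and the other 8 did not. The scavenger receptor MARCO was at 3.33, 3.12 and 3.31 there, against 3.76 to 4.12 elsewhere. CD163, a haemoglobin scavenger receptor, was at −1.11 on the 4 g array of animal 19, its second highest value, and VSIG4 was highest on the 4 g array of animal 23, at −1.05. By group the log2 of the sum ran from 6.34 to 6.76 at 4 g and from 6.38 to 6.78 at 0 g. Between 11 and 12 of the 12 markers were well above background on each array. For red blood cell markers it was 2.75 to 3.22 at 4 g and 2.54 to 3.34 at 0 g. The part of these cells in the HMOX1 levels was not tested.

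The regulators differed sharply in how much they varied. NFE2L2, which encodes NRF2, stood at −1.83, −1.63, −2.01 and −1.70 at 4 g in animals 19, 20, 23 and 24, against −2.00, −1.86, −1.84 and −2.08 at 0 g. Its SD over all 8 arrays was 0.16, at percentile 3.44 of the tested probes, and the dim arrays lay in the middle of the others. The difference by dose was 0.15 (SE 0.22, 95% interval −0.39 to 0.70), or 1.11-fold.

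KEAP1 had the widest spread of the 10 genes. It stood at −4.00, −1.80, −1.91 and −1.76 at 4 g in animals 19, 20, 23 and 24, against −1.63, −3.47, −2.33 and −2.31 at 0 g. Both dim arrays, 1 in each group, were lowest and lay 1.14 log2 units below the next array, and 3.8% of all probes had these arrays more than 1 unit below the others. Both were lowest, by any margin, for 19.7% of probes. In signal they had 7.85 units (4 g, animal 19) and 11.4 units (0 g, animal 20), against 54.2 to 82.9 units on the other 6. Since the dim arrays fell to opposite doses, animal 19 gave −2.37, animal 20 gave 1.66, and animals 23 and 24 gave 0.42 and 0.54. The fitted difference of 0.06 (SE 0.63, 95% interval −1.45 to 1.58) averages these.

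Without animal 19 the KEAP1 difference was 0.88 (SE 0.33) with an unadjusted p of 0.0423, and without animal 20 it was −0.47 (SE 0.61). Without both dim arrays and with no block it was 0.26 (SE 0.23), and the SD over arrays was 0.29 in place of 0.87. The 3 genes whose centred levels came closest to those of KEAP1 were GCDH, a mitochondrial enzyme of lysine breakdown, the corepressor CTBP1 and the protein kinase PRKD2. Their root mean square differences from KEAP1 over the 8 arrays were 0.11, 0.14 and 0.14. All 3 had the same 2 arrays lowest, which follows largely from their choice by likeness to KEAP1 on these arrays. GCDH was at −2.57 (4 g, animal 19) and −2.13 (0 g, animal 20), and between −1.04 and −0.11 elsewhere.

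**Figure D3:**
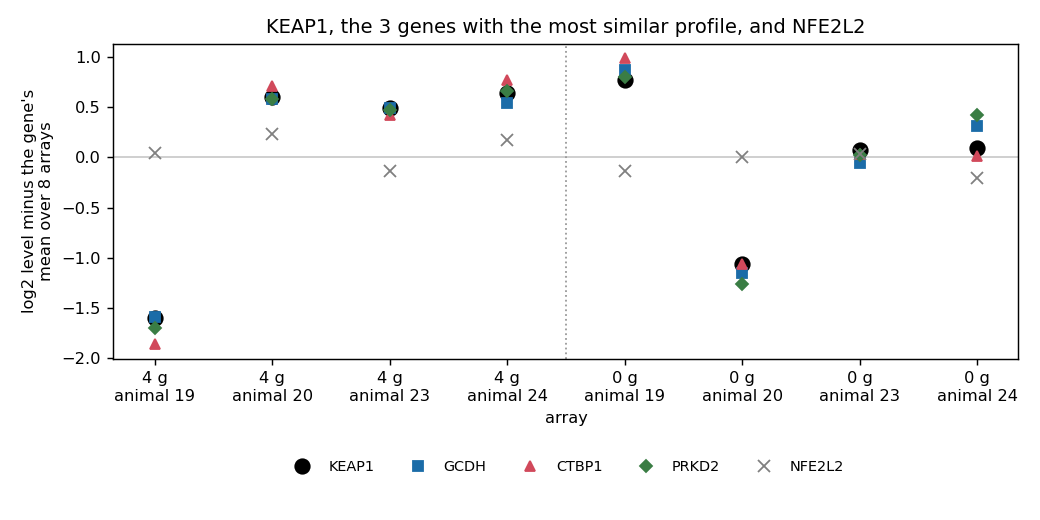
Log2 level minus the gene's mean over the 8 arrays for KEAP1, for the 3 genes with the most similar profile (GCDH, CTBP1 and PRKD2) and for NFE2L2, with 4 g arrays on the left and 0 g arrays on the right. KEAP1 and the 3 similar genes, chosen by their likeness to it on these arrays, are all low in animal 19 at 4 g and in animal 20 at 0 g. NFE2L2 stays within 0.24 of its mean on all arrays.

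By the same measure HMOX1 came closest to MS4A1, a B cell surface protein (0.18), PPP1R3C, a glycogen-targeting subunit (0.20), and PTPRB, an endothelial phosphatase (0.21). GSS came closest to the ATP synthase subunit ATP5F1B (0.18), the bile acid enzyme CYP8B1 (0.18) and the fatty acid elongation enzyme TECR (0.18). These likenesses describe 8 arrays that share animals and brightness.

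The rest of the pathway was read from 6 lists, and some genes, such as SQSTM1, TXN and GPX4, recur across lists. Of all 10985 tested probes 55.1% stood higher at 4 g, and whether a list shifted as a whole was not tested. Of 34 measured further NRF2 targets 26 stood higher and 8 lower at 4 g (median 0.06), and 0 passed in either direction. AKR1B10, an aldehyde reductase, differed most clearly: it stood at −3.80, −1.27, −3.19 and −2.72 at 4 g in animals 19, 20, 23 and 24, against −3.81, −2.92, −4.73 and −4.53 at 0 g. The groups overlapped, since the 0 g array of animal 20 lay above the 4 g arrays of animals 19 and 23. The difference was 0.01 in animal 19 and 1.65 in animal 20, each of which has a dim array. It was 1.54 and 1.82 in animals 23 and 24, whose labels are in doubt. The fitted difference was 1.25 (SE 0.36), with an unadjusted p of 0.0114 and an adjusted p of 1.00 in limma. The aldehyde oxidase AOX1 differed by 0.61 (SE 0.29) and was higher in 4 of 4 animals, which 348 of 10964 probes were (3.17%). The aldose reductase AKR1B1 differed by 0.32 (SE 0.24) and the exporter ABCC4 by −1.46 (SE 0.84). For ABCC4 animals 19 and 20 gave 1.74 and −1.20, and animals 23 and 24, whose labels are in doubt, gave −3.62 and −2.75.

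Glutathione conjugation, carried out by the glutathione S-transferases, had 11 of 14 measured genes higher and 3 lower at 4 g (median 0.14), with 0 passing. GSTT4 differed by 1.44 (SE 0.64), most of it in the animals whose labels are in doubt. It stood at 0.60 and 0.62 at 4 g in animals 23 and 24, against −2.43 and −2.07 at 0 g, while the differences were 0.81 in animal 19 and −0.77 in animal 20. GSTA3 split along animals or slide rows, which cannot be told apart here. At 4 g it was at 0.33 and 1.02 in animals 19 and 20 and at −1.36 and −1.81 in animals 23 and 24. At 0 g it was at 0.98 and 0.30 in animals 19 and 20 and at −2.69 and −2.03 in animals 23 and 24. The microsomal enzyme MGST1 differed by 0.22 (SE 0.23) and GSTO1 by −0.54 (SE 0.33).

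Genes that supply the cysteine and glutamate for glutathione or break it down had 9 of 22 higher and 13 lower (median −0.04), with 0 passing. The glutamine transporter SLC1A5 differed by −1.11 (SE 0.52), of which animal 23 gave −3.01. On the 0 g array of animal 23, which carried pancreatic transcripts, SLC1A5 was at 2.33, against −1.32 to 0.04 on the others. The part of other tissue in this value was not tested. The methylation enzymes BHMT (−0.38, SE 0.27) and MAT2A (−0.49, SE 0.40) and the glutaminase GLS2 (0.47, SE 0.39) did not pass either. Of 16 partners and regulators of NRF2, 12 stood higher and 4 lower (median 0.09). The mitochondrial phosphatase PGAM5, which binds KEAP1, was lower in 4 of 4 animals (−0.23, SE 0.21), as were 2.08% of all probes, and the repressor BACH2 differed by −0.40 (SE 0.45). PALB2 (0.54, SE 0.35) and BTRC (0.30, SE 0.30) stood higher.

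Genes listed under peroxide and superoxide removal had 16 of 27 higher and 11 lower (median 0.03), with MSRA at 0.28 (SE 0.22) and TXNIP at −0.47 (SE 0.38). GLRX5 differed by 1.01 (SE 0.68), with −1.64 and 1.01 in animals 19 and 20. In animals 23 and 24, whose labels are in doubt, it differed by 2.655 and 2.00. The plasma peroxidase GPX3 differed by −0.75 (SE 0.62), of which animal 20 gave −3.04. The last list joined selenoproteins, the class TXNRD1 belongs to, with the factors that make them, and had 3 of 14 genes higher and 11 lower (median −0.11). Of its 8 genes with SELENO names 1 stood higher and 7 lower, including SELENOI at −5.7e-05. Of its 6 synthesis factors, which include the selenoprotein SEPHS2, 2 stood higher and 4 lower. Selenoproteins outside this list went both ways, with MSRB1 at 0.51, TXNRD3 at 0.13, TXNRD2 at 0.11, GPX4 at 0.03 and GPX3 at −0.75. SELENOM (−0.77, SE 0.38), SEPHS2 (−0.49, SE 0.38), PSTK (0.25, SE 0.24) and SCLY (−0.17, SE 0.24) did not pass. SELENOM was highest, at −2.13, on the 0 g array of animal 23, which carried pancreatic transcripts. In these 6 lists 0 genes passed, and only AKR1B10 had an unadjusted p under 0.05.

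**Figure D4:**
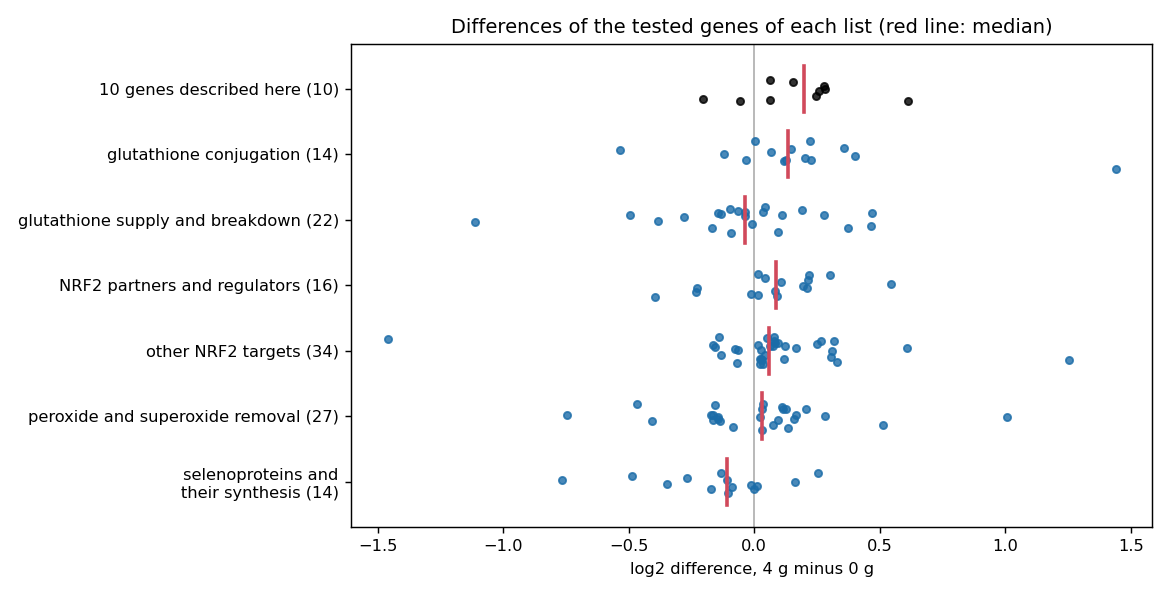
Log2 difference between 4 g and 0 g for the tested genes of each list, positive where 4 g is higher, with the number of genes in brackets and a red line at the median. The 10 genes described here have a median of 0.20, and the other lists run from −0.11 for selenoproteins and their synthesis to 0.14 for glutathione conjugation. Points are spread vertically for legibility.

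**Figure D5:**
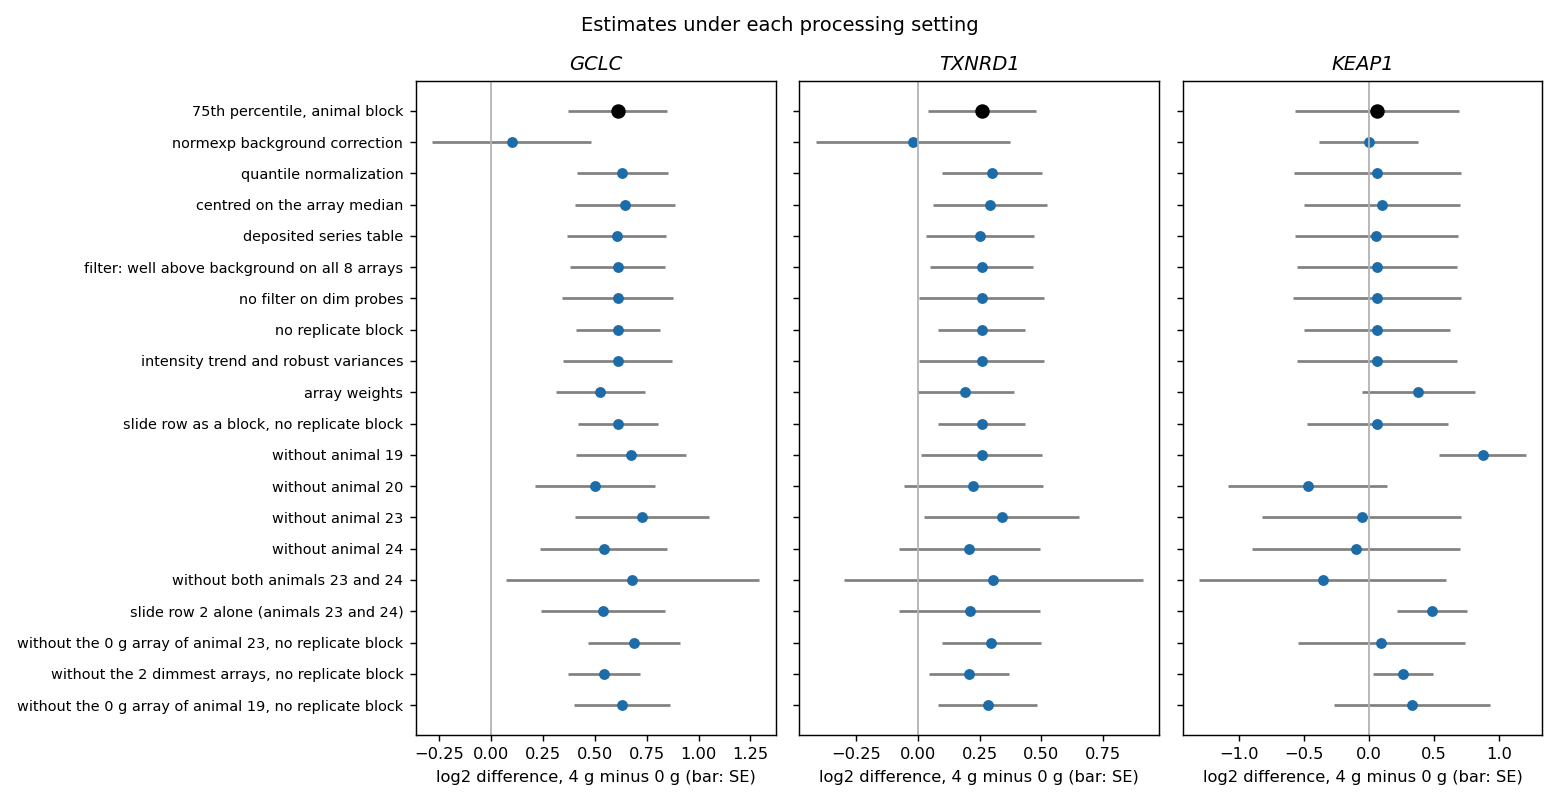
Log2 difference between 4 g and 0 g (4 g minus 0 g) with its standard error for GCLC, TXNRD1 and KEAP1 under the setting used in the text (black, at the top) and 19 other settings. GCLC stays above 0 in all of them, with its lowest value of 0.10 under normexp background correction, and KEAP1 runs from −0.47 to 0.88 depending on which animal is left out.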

How the data were processed

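Liver RNA of 4 bulls at 4 g and 0 g was labelled with Cy3, per the labels. Per the file headers, the deposited spot intensity values are Agilent Feature Extraction 11.0.1.1 processed signals, made with spatial and multiplicative detrending and left unscaled from array to array. Version 9.5 is named in the submitters' processing notes. The deposited series table holds log2 values centred near the 75th percentile, and each column correlated at 1.00 with its array. All 8 arrays were on 1 slide with 1 scan date.

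From these, log2 of the processed signal minus the log2 of each array's 75th percentile over the 15110 non-control features was taken, 48 outlier spots were left out (none of a member) and spots of 1 probe averaged. The number of arrays limits the precision: the median 95% interval reached 0.70 log2 units to either side. The 10985 probes well above background on at least 4 arrays were fitted with limma 3.58.1 in R 4.3.3 (data.table, version 1.17.8), animal as a block as in the Latin square of the design text, 2-sided, Benjamini-Hochberg adjustment at 0.05. The deviations of the 2 arrays of an animal correlated at −0.19 in animal 19, −0.18 in animal 20, 0.21 in animal 23 and 0.13 in animal 24. The probes with 2 levels, without splits by the dim arrays, had paired the arrays of animals 19 and 20 and put animals 23 and 24 in doubt. Animals 19 and 20 each have a dim array, and both dim arrays were lowest for 19.7% of probes. Their correlations thus mix brightness with animal and cannot decide their pairing. For animals 23 and 24 the 2 checks differ, and the block rests on the labels. On simulated data of the same size, 93% of 100 changes of 2 log2 units were recovered among 10985 probes, with 13 false calls. The simulated data had independent noise, correct labels and no dim arrays. They held no changes as small as those of the members, so they do not show how often such differences would be recovered.

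Members and lists were chosen with earlier results of these data known. Named were all members, up to 4 genes per other list by smallest p, and 3 genes most like each of the 3 most variable members, leaving out names that are accessions or LOC numbers. Probes were named by their accessions through RefSeq gene names (assembly ARS-UCD2.0), which matched 11194 probes and 9 of the 10 members; the GPX1 probe kept its file name. The brightest probe stood for a gene. Alternatives varied background correction, normalization, filter, variance model, block and arrays used.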

Additional observations from a re-analysis of the deposited data

Results flagged for a closer look

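Among 68 groups of 4 arrays (members and genes named from the other lists, each dose by itself), 6 held 1 array apart from the other 3 by Dixon's 95% criterion, and chance alone flags about 1 group in 20. KEAP1 at 4 g stood at −4.00 in animal 19, against −1.91 to −1.76 in the other animals, on 1 of the 2 dim arrays. HMOX1 at 0 g stood at 3.56 in animal 19, against 4.26 to 4.34. GSR at 0 g stood at 3.63 in animal 24, against 3.08 to 3.12. BHMT at 4 g stood at 4.204 in animal 19, against 3.66 to 3.70, and MAT2A at 4 g at −1.30 in animal 19, against 0.27 to 0.59. AOX1 at 0 g stood at −3.12 in animal 23, on the array with the highest pancreatic signal, against −1.72 to −1.45. The part of brightness or of other tissue in these values was not tested.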

How the results depend on the processing

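Under 19 alternatives 0 members passed, between 6 and 9 of the 10 stood higher at 4 g, and GCLC and GCLM kept a positive difference. The median of the members was 0.0511 with normexp background correction (−0.0505 over all probes) and, leaving out 1 animal in turn, ran from 0.0452 to 0.3059. With no replicate block it was 0.20, and the block changed no call. With normexp TXNRD1 came to −0.0194 and NFE2L2 to −0.0292. Leaving out animals in turn gave −0.27 to 0.59 for GSS, −0.47 to 0.88 for KEAP1, 0.0876 to 0.511 for GSR, 0.0744 to 0.352 for GCLM, −0.463 to −0.0360 for HMOX1, −0.128 to 0.0160 for GPX1 and −0.0231 to 0.567 for NQO1. Without both animals 23 and 24 the difference was −0.56 for GSS, −0.36 for KEAP1 and 0.0600 for GPX1, and in those 2 animals alone it was −0.0131 for GSR. With no block, HMOX1 came to 0.20 without the 2 dimmest arrays, GSS to −0.14 without the 0 g array of animal 23, and GPX1 to 0.0825 without the 0 g array of animal 19, an alternative added after seeing the data. Without the 2 dimmest arrays and with no block 5 probes passed by dose (IL20RA, ULBP3, LOC768255, GIMAP4 and GIMAP6, each with 2 separate levels), and between animals REC8 passed without animal 19, 0 to 1 probe over the animals left out. The causes were not tested.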
